A study of Homo sapiens with 12 samples.

Results

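The 10 genes described here encode the kinase mTOR, the subunits that define its complexes, an upstream brake on it and the translation factors that it acts on. They were chosen by gene symbol, namely MTOR, RPTOR, RICTOR, MLST8, DEPTOR, DDIT4, EIF4E, EIF4EBP1, EIF4EBP2 and RPS6KB1, and all 10 were found among the 19973 genes of the expression table. RNA was sequenced from H460 and A549, established cell lines of human non-small cell lung cancer (NSCLC), both with the genotype WT in the labels. The paper states, however, that both lines carry homozygous inactivating mutations of KEAP1. Each line was either left untreated (control) or kept for 48 h with 10 µM of ISP-I, and each of the 4 groups had 3 libraries. ISP-I (isovalerylspiramycin I) is a purified component of the macrolide antibiotic carrimycin. Whether the control cells received the DMSO in which ISP-I was dissolved is not given in the labels, and neither the labels nor the RNA methods say that the libraries came from separate cultures, so p-values measure the spread between these libraries, which may be technical.

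mTOR is a serine/threonine kinase that couples growth factors, amino acids and energy to cell growth. It works in mTORC1, defined by RPTOR (raptor), and in mTORC2, defined by RICTOR, while MLST8 (mLST8) sits on the kinase domain in both and DEPTOR is an inhibitor of both. mTORC1 phosphorylates the 4E-BP proteins, encoded by EIF4EBP1 and EIF4EBP2, which otherwise hold the cap-binding protein eIF4E and block cap-dependent translation. It also phosphorylates S6 kinase 1, encoded by RPS6KB1, whereas mTORC2 phosphorylates AKT and SGK. DDIT4 (REDD1) is a stress-induced protein that restrains mTORC1 through the TSC1-TSC2 complex. The values below are mRNA levels and carry no measure of protein or of phosphorylation.

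The promoters of DDIT4, EIF4EBP2 and RICTOR are shown because these mRNAs had large changes after ISP-I, the first and second down and the third up. Each sequence is the stretch from 250 to 11 bases before the gene's start, 5′ to 3′ on the gene's strand, from RefSeq on GRCh38.p14. Capitals mark the HIF core ACGTG or the CRE core TGACG, which reads CGTCA where it lies on the other strand.
DDIT4 (chr10:72273674-72273913, + strand): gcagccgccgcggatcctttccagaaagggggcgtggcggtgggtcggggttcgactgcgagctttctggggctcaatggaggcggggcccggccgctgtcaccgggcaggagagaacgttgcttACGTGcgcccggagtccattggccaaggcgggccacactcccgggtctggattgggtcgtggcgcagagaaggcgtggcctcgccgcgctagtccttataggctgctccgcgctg
EIF4EBP2 (chr10:70403895-70404134, + strand): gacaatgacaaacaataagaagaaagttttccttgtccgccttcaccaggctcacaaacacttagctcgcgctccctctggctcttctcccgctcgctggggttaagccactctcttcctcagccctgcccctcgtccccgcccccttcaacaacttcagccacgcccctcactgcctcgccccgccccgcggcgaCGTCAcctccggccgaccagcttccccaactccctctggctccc
RICTOR (chr5:39074410-39074649, - strand): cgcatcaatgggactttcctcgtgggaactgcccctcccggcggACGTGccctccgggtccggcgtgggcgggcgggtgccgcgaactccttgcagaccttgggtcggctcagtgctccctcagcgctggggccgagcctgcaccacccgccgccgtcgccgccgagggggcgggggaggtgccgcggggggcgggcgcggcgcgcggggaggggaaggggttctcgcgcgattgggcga
RefSeq promoters were found for 7 of the 10 genes. Over both strands, ACGTG occurred once in DDIT4 and once in RICTOR, against 17.7% of 35116 promoters with at least 1 match. TGACG occurred in EIF4EBP2 and in EIF4E, against 20.5% of promoters. EIF4E had 4 matches to ACGTG, which overlapped its 2 matches to the palindromic E-box CACGTG, found in 6.01% of promoters. The GC box GGGCGG, held by 41.4% of promoters, occurred 4 times in RICTOR, 2 times in EIF4EBP2 and 1 time in MTOR. None of the 7 held the amino acid response motif TGATGNAA (3.03% of promoters) or the FOXO motif GTAAACA (2.85%), and RPTOR and RPS6KB1 held none of the 6 motifs. These matches describe the letters of the window only.

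The libraries held 14225849 to 17874422 reads on genes. Levels are given as FPKM, a count of fragments divided by gene length and by library size. Levels of different genes can be set side by side only as far as the listed gene lengths hold. For MLST8 the listed length was 4360 bases, against 1671 bases in its MANE Select transcript of GENCODE v44. Keratins of epithelial cells were high in both lines (KRT8 at 194.4 FPKM in H460 controls and 649.9 in A549 controls), but CDH1 had no reads in H460 controls and EPCAM was at 0.0473 FPKM there. The 5 lung lineage markers summed to at most 0.44 FPKM in any library. Markers of immune, endothelial and stromal cells summed to 1.95 to 10.8 FPKM, the top of that range coming from COL3A1 in H460 controls, which was 8.60 FPKM there and 2.25 FPKM after ISP-I. In A549, CDH1 was at 4.90 FPKM in controls and 0.756 FPKM after ISP-I. The part of these markers in the results below was not tested. In bulk RNA, fewer cells with a transcript and less of it in each cell cannot be told apart.

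Most of the 10 mRNAs changed after ISP-I in both lines, as did most of all genes tested. More of the 10 fell than rose, though only 5 against 4 in A549. In H460, 6 fell (MTOR, MLST8, DEPTOR, DDIT4, EIF4EBP1 and EIF4EBP2), 2 rose (RICTOR and EIF4E) and 2 did not pass the test. In A549, 5 fell (MTOR, DEPTOR, DDIT4, EIF4EBP1 and EIF4EBP2), 4 rose (RPTOR, RICTOR, MLST8 and EIF4E) and only RPS6KB1 did not pass. A change was called at an adjusted p under 0.05 in limma, which was run on log2(FPKM + 1) and adjusted by Benjamini-Hochberg over all genes tested. By that rule 41.5% of the 13423 genes tested in H460 were lower and 27.6% higher, and 27% of the 13705 genes tested in A549 were lower and 30.5% higher. The median log2 fold change of the 10 genes was -0.83 in H460, where that of all genes was -0.15, and -0.32 in A549, where that of all genes was 0.02. With median-of-ratios scaling the median of all genes in H460 became 0.01. Changes in H460 are therefore to be read against that shift.

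With a fold change over 2 of FPKM + 1 required as well, 4 of the 10 were lower in H460 (MLST8, DDIT4, EIF4EBP1 and EIF4EBP2) and RICTOR was higher, against 15.2% and 10.5% of all genes tested. The added 1 and the scaling set which genes near that limit were counted. In H460 the mean FPKM of MTOR (0.49 of control) and DEPTOR (0.255 of control) was also below 0.5 of the control mean when nothing was added, and with a pseudocount of 0.1 or limma voom on library totals both joined, for a count of 6. MLST8 left the count in H460 with median-of-ratios factors (-0.78) and with the GC trend removed (-0.69). In A549 DDIT4 and EIF4EBP1 were lower and none was higher, against 3.51% and 4.2% of all genes tested. The ranges of control and ISP-I libraries did not overlap for 8 of the 10 genes in H460, where this held for 72.7% of all genes, and for 9 of the 10 in A549, where it held for 65.5%.

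**Figure D1:**
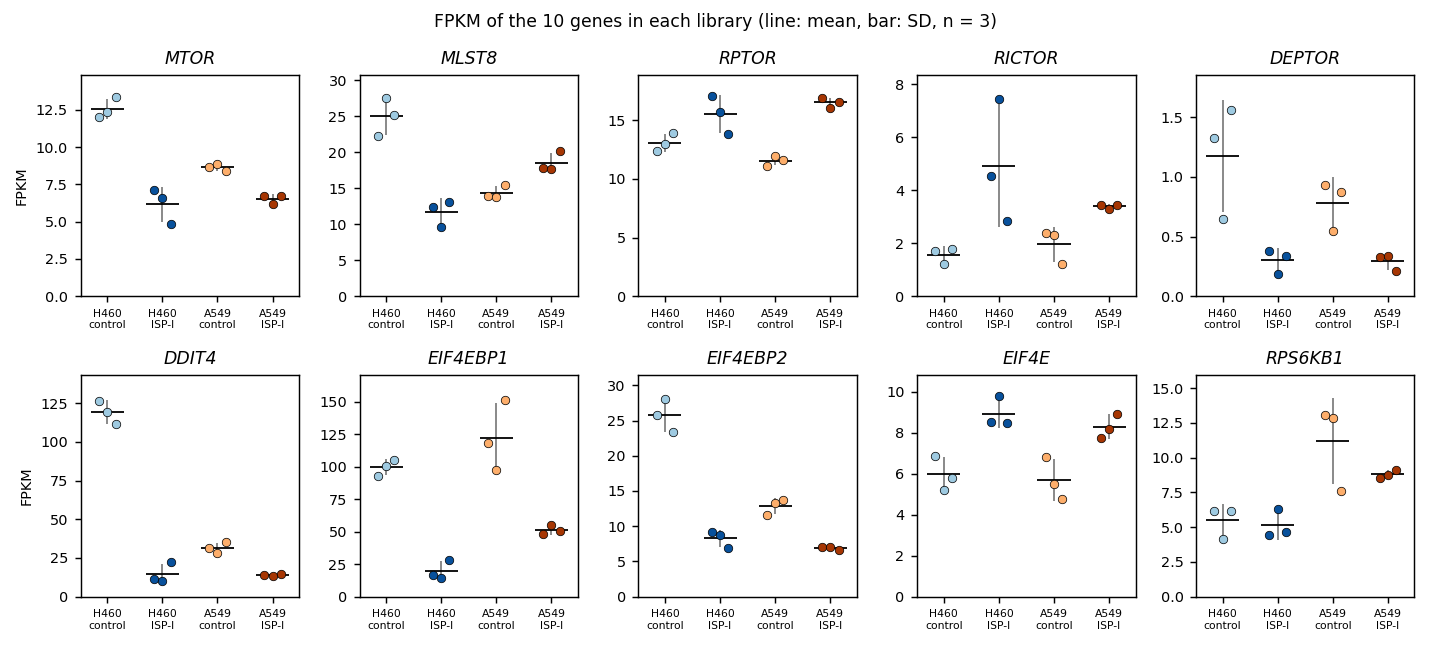
FPKM of each of the 10 genes in the 12 libraries, a panel a gene, with the mean (line) and SD (bar) of the 3 libraries of each group. DDIT4 fell from 111.4 to 126.7 FPKM in H460 controls to 10.03 to 22.05 FPKM after ISP-I, and MLST8 moved down in H460 and up in A549.

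MTOR, the catalytic subunit of both complexes (chromosome 1, 11106535 to 11262551, minus strand, hg38), was lower after ISP-I in both lines. Its levels in H460 were 12.01, 12.3 and 13.3 FPKM in controls and 7.09, 6.57 and 4.81 FPKM with ISP-I. In A549 they were 8.69, 8.85 and 8.40 FPKM in controls and 6.72, 6.21 and 6.70 FPKM with ISP-I. Every treated library lay below every control library of its line, and the treated libraries of the lines overlapped each other although the H460 controls had started higher. The fall in H460 was -0.93 on the log2 scale (SE 0.144, 95% interval -1.26 to -0.61, limma adjusted p = 0.000468), and in A549 it was -0.36 (SE 0.0696, -0.52 to -0.20, limma adjusted p = 0.00275).

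MLST8, the small subunit that binds the kinase domain in both complexes (chromosome 16, 2204248 to 2209453, plus strand), was the only gene of the 10 called in opposite directions. In H460 it went from 22.3, 27.5 and 25.1 FPKM to 12.4, 9.60 and 13.1 FPKM, a log2 fold change of -1.04 (SE 0.145, limma adjusted p = 0.00026). In A549 it went from 13.9, 13.8 and 15.4 FPKM to 17.7, 17.7 and 20.1 FPKM, a log2 fold change of 0.34 (SE 0.079, limma adjusted p = 0.00625). The 4 groups did not overlap, in the order H460 control, A549 with ISP-I, A549 control and H460 with ISP-I. Exons of MLST8 overlap those of BRICD5 on the opposite strand by 201 bases, and the strand setting of the counting is not given in the sources used here. BRICD5 itself was low, at 1.82 FPKM in H460 controls and 0.733 with ISP-I, and at 1.81 and 1.499 FPKM in A549, and its part in the MLST8 values was not tested.

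RPTOR and RICTOR, which set mTORC1 apart from mTORC2, did not fall. RICTOR (chromosome 5, 38937920 to 39074399, minus strand) was a weakly expressed mRNA that rose in both lines. In H460 it went from 1.71, 1.22 and 1.78 FPKM to 4.53, 7.43 and 2.83 FPKM, and in A549 from 2.37, 2.31 and 1.2004 FPKM to 3.42, 3.28 and 3.44 FPKM. Each treated library exceeded all controls of its line, but the treated H460 libraries were widely spread. The log2 fold changes were 1.14 (SE 0.257, limma adjusted p = 0.00404) and 0.59 (SE 0.158, limma adjusted p = 0.0125). With 1 added to FPKM at this level, these values understate the change. The ratios of mean FPKM were 3.14 and 1.73, and limma voom on recovered reads and median-of-ratios factors gave 1.84 in H460. On log2(FPKM + 1) the change was 0.85 in H460 without ISP-I library 2 and 0.39 in A549 without control library 3 (limma adjusted p = 0.00074), and in A549 the adjusted p was 0.0562 in a fit of all 12 libraries. RICTOR exons overlap those of OSMR, on the opposite strand, by 229 bases. In H460 OSMR went from 20.4 to 24.0 FPKM, in A549 from 18.1 to 27.9 FPKM, and its part in the RICTOR values was not tested.

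RPTOR (chromosome 17, 80544819 to 80966371, plus strand) rose in A549, from 11.1, 11.9 and 11.6 FPKM to 16.9, 16.1 and 16.5 FPKM (log2 fold change 0.48, SE 0.0643, limma adjusted p = 0.00036). In H460 the values were 12.3, 13.0 and 13.9 FPKM in controls and 17.1, 15.7 and 13.8 FPKM with ISP-I. There ISP-I library 3 lay within the control range, and the difference of 0.23 (95% interval -0.04 to 0.50) did not pass (limma adjusted p = 0.116). The H460 value depended on the scaling, being 0.49 (limma adjusted p = 0.00659) with median-of-ratios factors and 0.31 (limma adjusted p = 0.0262) without ISP-I library 3.

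**Figure D2:**
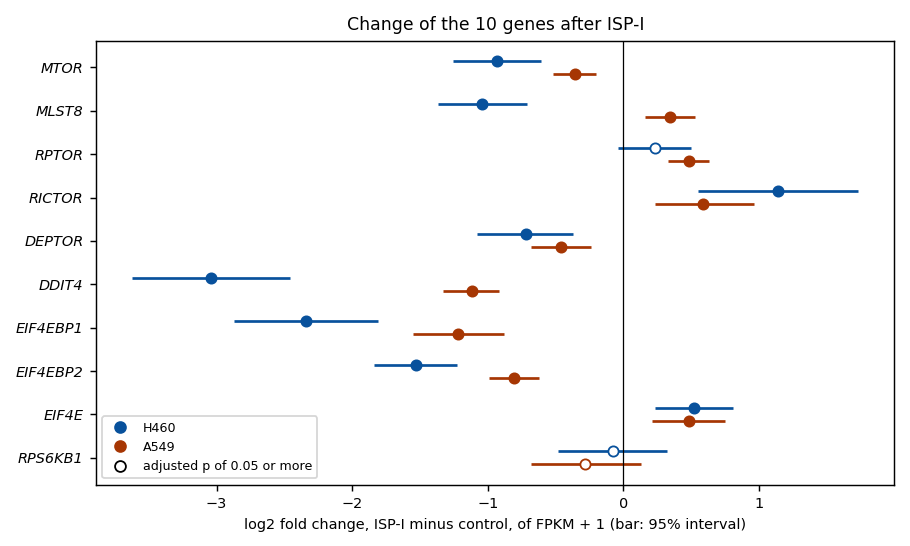
Log2 fold change of FPKM + 1 between ISP-I and control for the 10 genes in H460 and A549, with 95% intervals from limma and open circles where the adjusted p was 0.05 or more. The intervals of MLST8 lie on opposite sides of 0 in the lines, and DDIT4 in H460 lies lowest at -3.04.

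DDIT4, the stress-induced brake on mTORC1 (chromosome 10, 72273924 to 72276036, plus strand), had the largest change of the 10 in H460 and fell in A549 too. In H460 it went from 126.7, 119.7 and 111.4 FPKM to 11.4, 10.03 and 22.05 FPKM, that is to 0.121 of the control mean. In A549 it went from 31.4, 28.4 and 35.0 FPKM to 14.0, 13.2 and 14.6 FPKM, or 0.44 of the control mean. Controls of the lines were far apart, while the treated libraries of the lines overlapped. The log2 fold changes were -3.04 (SE 0.253, limma adjusted p = 1.3e-05) in H460 and -1.12 (SE 0.0877, limma adjusted p = 2.08e-05) in A549. DDIT4L, its paralog, was below 1 FPKM on average in every group and fell in H460 (-0.57, limma adjusted p = 0.00107), with 0.12 (adjusted p = 0.275) in A549.

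DEPTOR, the inhibitor that binds mTOR itself (chromosome 8, 119873717 to 120050918, plus strand), was the least expressed of the 10 and fell in both lines. It was measured at 1.32, 0.652 and 1.56 FPKM in H460 controls and at 0.383, 0.183 and 0.333 FPKM with ISP-I, from 50, 26 and 61 reads and from 18, 8 and 13 reads. In A549 it was at 0.937, 0.544 and 0.876 FPKM in controls and at 0.331, 0.340 and 0.212 FPKM with ISP-I, from 35, 21 and 34 reads and from 13, 14 and 8 reads. No treated library reached a control library of its line. The treated means were 0.255 and 0.375 of the control means in H460 and A549. Because 1 was added to every FPKM, the log2 fold changes of -0.72 (SE 0.156, limma adjusted p = 0.0031) and -0.46 (SE 0.096, limma adjusted p = 0.0039) understate a change at this level. With a pseudocount of 0.1 they were -1.63 and -1.15. Both negative regulators among the 10, DDIT4 and DEPTOR, thus fell together with the kinase mRNA.

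EIF4EBP1, which encodes 4E-BP1 (chromosome 8, 38030534 to 38060365, plus strand), was with DDIT4 one of the most abundant of the 10 mRNAs in untreated cells and fell in both lines. In H460 it was at 92.9, 100.7 and 105.2 FPKM in controls and 16.5, 14.1 and 28.5 FPKM with ISP-I. In A549 it was at 117.8, 97.3 and 151.0 FPKM in controls and 47.9, 55.1 and 50.8 FPKM with ISP-I. The control ranges of the lines overlapped, whereas every treated A549 library stayed above every treated H460 library. The log2 fold changes were -2.34 (SE 0.23, limma adjusted p = 3.29e-05) in H460 and -1.22 (SE 0.146, limma adjusted p = 0.000206) in A549.

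EIF4EBP2, which encodes 4E-BP2 (chromosome 10, 70404145 to 70428618, plus strand), went down as well. In H460 it was at 25.8, 28.1 and 23.3 FPKM in controls and 9.10, 8.77 and 6.90 FPKM with ISP-I (log2 fold change -1.53, SE 0.135, limma adjusted p = 1.76e-05). In A549 it was at 11.6, 13.2 and 13.7 FPKM in controls and 7.08, 6.97 and 6.66 FPKM with ISP-I (-0.81, SE 0.0805, limma adjusted p = 7.6e-05). As with DDIT4, higher controls in H460 came down to a range that overlapped that of treated A549. The third 4E-BP gene, EIF4EBP3, was at 0.295 to 0.642 FPKM on average and did not pass in either line (0.18 in H460, limma adjusted p = 0.3, and 0.06 in A549, adjusted p = 0.765). It had only 2 to 11 reads a library, too few to tell a change from none.

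EIF4E, which encodes the cap-binding protein that the 4E-BPs hold (chromosome 4, 98871684 to 98930637, minus strand), moved the other way. It went from 6.88, 5.23 and 5.81 FPKM to 8.55, 9.78 and 8.498 FPKM in H460 and from 6.80, 5.49 and 4.77 FPKM to 7.75, 8.19 and 8.95 FPKM in A549. Treated libraries lay above the controls in both lines, and neither the controls nor the treated libraries of the lines were apart. The rise was 0.52 (SE 0.127, limma adjusted p = 0.00633) in H460 and 0.48 (SE 0.117, limma adjusted p = 0.00786) in A549. The length listed for EIF4E was 14067 bases, against 4971 bases in the exons of GENCODE v44 and 2427 bases in its MANE Select transcript. Its FPKM are therefore low in comparison with other genes, and 1 added to a lower FPKM makes its log2 fold change smaller. With a pseudocount of 0.1 it was 0.58 in H460 and 0.55 in A549. With the library trend in GC content removed it was 0.28 in H460 (limma adjusted p = 0.0222) and 0.30 in A549 (adjusted p = 0.0101), and with voom and median-of-ratios factors it was 0.87 in H460.

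RPS6KB1, which encodes S6 kinase 1 (chromosome 17, 59893046 to 59950574, plus strand), passed in neither line. It was at 6.19, 4.17 and 6.18 FPKM in H460 controls and 4.41, 6.33 and 4.67 FPKM with ISP-I, and at 13.1, 12.9 and 7.62 FPKM in A549 controls and 8.53, 8.75 and 9.14 FPKM with ISP-I. In each line the control range spanned or overlapped the treated one. The differences were -0.08 (95% interval -0.48 to 0.32, limma adjusted p = 0.694) in H460 and -0.28 (-0.68 to 0.13, limma adjusted p = 0.207) in A549, so falls and small rises are both within the intervals. In A549 the outcome rested on control library 3, without which the difference was -0.51 (limma adjusted p = 2.17e-05). The paralog RPS6KB2 did not pass either, with -0.20 (adjusted p = 0.27) for H460 and 0.16 (adjusted p = 0.0955) for A549.

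The size of the response was then compared between the lines in a single limma fit of all 12 libraries, as the H460 change minus the A549 change. For 5 of the 10 genes the change was more negative in H460, against 34.7% of the 13953 genes tested, and for none was it more positive, against 18.6%. Those shares depended on the scaling. With median-of-ratios factors 3291 of 13975 genes were more negative and 3805 more positive. The difference was largest for DDIT4 (-1.91, SE 0.298, limma adjusted p = 0.000194), the mTORC1 brake, and for MLST8 (-1.38, SE 0.165, limma adjusted p = 2.52e-05), the shared subunit. Both 4E-BP genes also fell further in H460, EIF4EBP1 by -1.12 (SE 0.303, limma adjusted p = 0.0079) and EIF4EBP2 by -0.73 (SE 0.153, limma adjusted p = 0.00165), although for EIF4EBP2 the difference was -0.44 (adjusted p = 0.0591) with voom and median-of-ratios factors. For MTOR the difference was -0.58 (SE 0.156, limma adjusted p = 0.00794), but with median-of-ratios factors it was -0.31 (limma adjusted p = 0.131) and did not pass. The other 5 did not pass, with 95% intervals of -0.52 to 0.01 for RPTOR, -0.19 to 1.28 for RICTOR, -0.70 to 0.17 for DEPTOR, -0.34 to 0.41 for EIF4E and -0.40 to 0.79 for RPS6KB1.

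Before treatment, 4 of the 10 mRNAs were higher in H460 than in A549 and 1 was lower, against 28.6% and 31.6% of the 13532 genes tested. DDIT4 stood out among them at 119.2 ± 7.64 FPKM in H460 and 31.6 ± 3.34 FPKM in A549 (SD, n = 3), a log2 difference of 1.89 (SE 0.101, limma adjusted p = 8.85e-07). EIF4EBP2 (0.95, limma adjusted p = 6.4e-05), MLST8 (0.76, adjusted p = 0.00023) and MTOR (0.49, adjusted p = 0.000978) were also higher in H460. RPS6KB1 was the mRNA that was lower there (-0.89, SE 0.209, limma adjusted p = 0.00615). The 4 mRNAs higher in untreated H460 are among the 5 whose change was more negative there, but both comparisons use the same control libraries. EIF4EBP1, the fifth, differed by -0.27 before treatment (95% interval -0.62 to 0.08, limma adjusted p = 0.156).

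Ratios of FPKM within a library describe how the parts of the system stood to each other, and they were not tested. The sum of both 4E-BP mRNAs over EIF4E mRNA was 17.3, 24.6 and 22.1 in H460 controls and 3.00, 2.34 and 4.16 with ISP-I. In A549 it was 19.0, 20.1 and 34.5 in controls and 7.09, 7.57 and 6.42 with ISP-I. The ratio was thus lower in each treated library than in any control, with H460 lowest. Its absolute height depends on the EIF4E length: with MANE Select lengths, a choice made after the data were seen, the group means were 3.87 and 0.571 in H460 and 4.48 and 1.28 in A549.

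The balance within the 4E-BP pair differed between the lines. EIF4EBP1 over EIF4EBP2 was 3.601, 3.59 and 4.51 in H460 controls and 10.2, 7.36 and 11.01 in A549 controls, and it was 1.82, 1.61 and 4.13 with ISP-I in H460 and 6.76, 7.90 and 7.62 in A549. EIF4EBP1 was the more abundant of the pair in all 12 libraries. RPTOR over RICTOR was 7.19, 10.6 and 7.80 in H460 controls and 3.77, 2.11 and 4.87 with ISP-I, so raptor mRNA exceeded rictor mRNA throughout by a margin that was smaller in treated H460. In A549 the same ratio was 4.69, 5.15 and 9.67 in controls and 4.94, 4.90 and 4.80 with ISP-I, which lay within the control range.

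**Figure D3:**
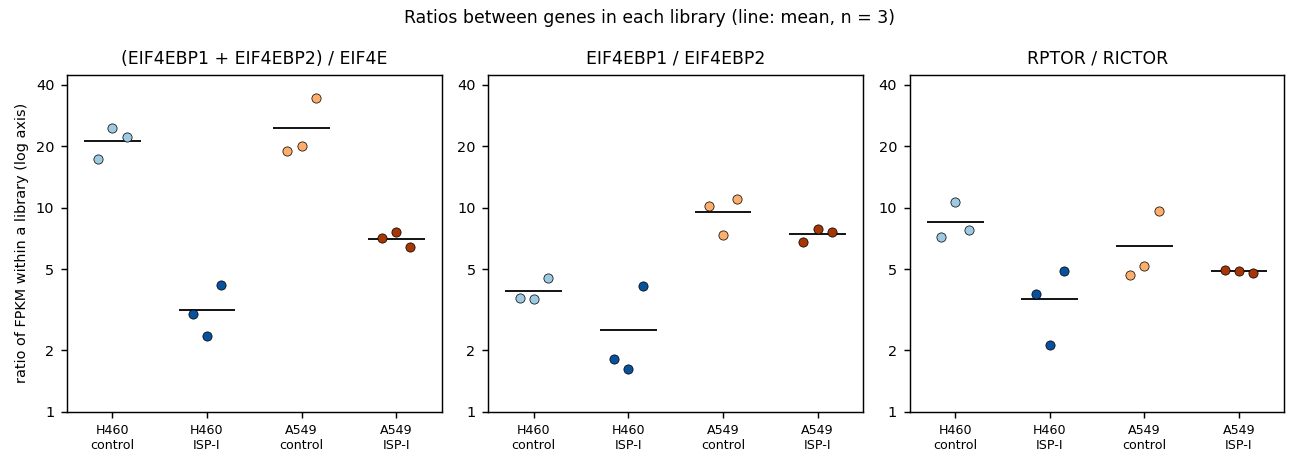
Ratios of FPKM within each library for 4E-BP1 plus 4E-BP2 over eIF4E, 4E-BP1 over 4E-BP2 and raptor over rictor mRNA, on a log axis, with the mean of each group as a line (n = 3). The first ratio was 17.3 to 34.5 in controls and 2.34 to 7.57 with ISP-I.

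Several of the 10 mRNAs varied between libraries of a group together with the base composition of transcripts. RICTOR, EIF4E and RPS6KB1 have transcripts of low GC content (36.5%, 34.5% and 37.2% in MANE Select), all within the lowest 6.05% of genes. In A549 control library 3 the quintile of genes with the lowest GC content lay 0.34 below the other 2 libraries on the log2 scale (median over the genes), and there RICTOR, EIF4E and RPS6KB1 had their lowest A549 control values and EIF4EBP1, at 62.9% GC, its highest. In H460 with ISP-I the same quintile lay 0.27 above the others in library 2 and 0.28 below in library 3, where RICTOR was 7.43 and 2.83 FPKM and EIF4EBP1 14.1 and 28.5 FPKM. Each treated A549 library lay within 0.04 of the other 2 by this measure. After each library's trend with GC was removed, a choice made after the data were seen, the RICTOR change in H460 was 0.96 (limma adjusted p = 0.00149), that of EIF4E in H460 was 0.28 (adjusted p = 0.0222), and that of RPS6KB1 in A549 was -0.43 (limma adjusted p = 0.00368). RPTOR in H460 was then 0.57 (limma adjusted p = 0.00265). Libraries also differed by listed gene length. The longest and shortest quintiles of genes lay at -0.15 and 0.16 against the other 2 libraries in A549 control library 3. In H460 with ISP-I they lay at 0.19 and -0.25 in library 2 and at -0.26 and 0.28 in library 3. Listed lengths were 13540 bases for RICTOR, 14067 for EIF4E, 7697 for RPS6KB1 and 880 for EIF4EBP1. The part of length was not tested, and no trend with it was removed.

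**Figure D4:**
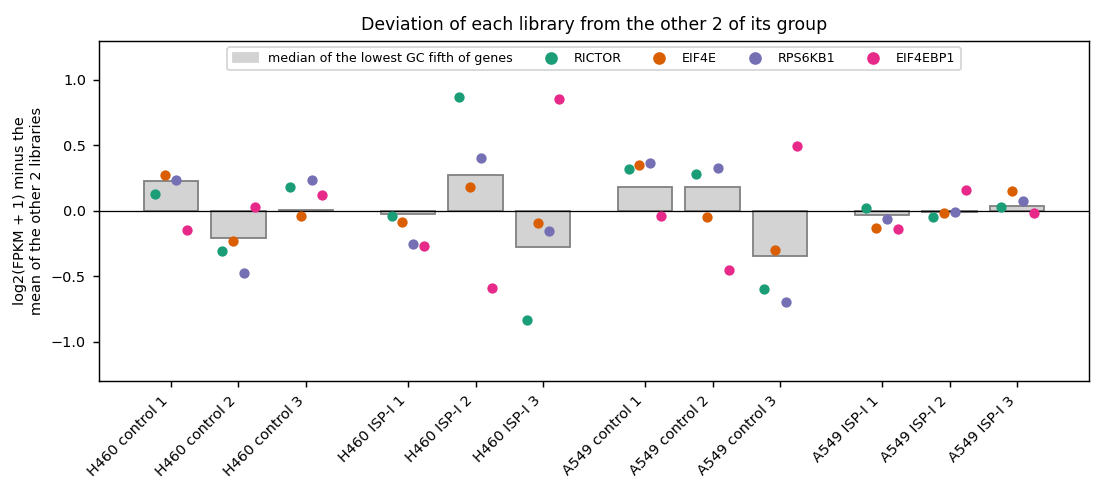
Deviation of each library from the mean of the other 2 of its group, in log2(FPKM + 1), for RICTOR, EIF4E, RPS6KB1 and EIF4EBP1 (points), beside the median deviation of the quintile of genes with the lowest GC content (bars). In A549 control library 3, where the bar is at -0.34, the 3 genes of low GC content lie below 0 and EIF4EBP1 lies above.

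Other genes of the mTOR system were read from 7 lists of 98 genes in all. Of the 96 tested in H460, 30 rose and 36 fell, and of the 96 tested in A549, 42 rose and 22 fell. Those are 31.2% and 37.5% in H460 and 43.8% and 22.9% in A549, to be set beside the shares of all genes given above. Among the 7 assembly factors and further subunits, 5 fell and 1 rose in H460 (median -0.64), and 1 fell in A549 (median -0.13). TELO2, which helps fold and assemble mTOR, fell in H460 from 31.5 to 12.6 FPKM (-1.26, limma adjusted p = 3.03e-05) and in A549 from 22.9 to 16.2 FPKM (-0.47, adjusted p = 0.00077). MAPKAP1, the mTORC2 subunit SIN1, fell in H460 from 19.0 to 8.13 FPKM (-1.13, limma adjusted p = 3.31e-05) and was at -0.14 in A549 (adjusted p = 0.101). The mTORC2-binding PRR5 and PRR5L fell in H460 (-0.64 and -0.89, limma adjusted p = 0.0025 and 0.00017) and were at -0.13 and 0.28 in A549 (adjusted p = 0.22 and 0.0612).

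Upstream of mTORC1, the 13 genes of the TSC complex, RHEB and energy sensing held 4 that rose and 4 that fell in H460 and 8 that rose and 2 that fell in A549 (medians 0.04 and 0.58). TSC2, which with TSC1 switches off the mTORC1 activator RHEB, fell in both lines, to 0.425 of the control mean in H460 (limma adjusted p = 0.000114) and to 0.728 in A549 (adjusted p = 0.00365). TSC1 itself was at 0.32 in H460 (limma adjusted p = 0.0883) and rose by 0.58 in A549 (adjusted p = 0.000625). Of the subunits of the energy sensor AMPK, PRKAG2 rose by 0.99 in H460 and 1.41 in A549 and PRKAB1 by 0.71 and 0.94. PRKAA1, PRKAB2 and PRKAG1 did not pass in H460 (-0.01, 0.28 and -0.02, limma adjusted p = 0.957, 0.0691 and 0.871) and rose in A549 (0.51, 0.58 and 0.73). The catalytic PRKAA2 rose from 4.25 to 18.1 FPKM in H460 (1.83, limma adjusted p = 0.000111) and was at 0.33 in A549 (adjusted p = 0.0583). STK11, which encodes the AMPK-activating kinase LKB1, fell by 0.93 in H460 (limma adjusted p = 0.000327) and was also lower (-0.35, adjusted p = 0.00946) in A549. Among genes of amino acid sensing by Rag GTPases, 10 of 28 rose and 11 fell in H460 and 16 of 27 rose and 4 fell in A549 (medians -0.18 and 0.29). RRAGD, a Rag GTPase that recruits mTORC1 to lysosomes, rose in H460 from 0.435 to 11.1 FPKM (3.07, limma adjusted p = 2.69e-07) and in A549 from 1.31 to 7.16 FPKM (1.82, adjusted p = 1.61e-06). CASTOR2, of the arginine-sensing CASTOR family, fell in both lines, in H460 from a mean of 3.04 to 0.278 FPKM and in A549 from a mean of 5.69 to 0.649 FPKM, which is 0.0913 and 0.114 of the control means (limma adjusted p = 1.18e-06 and 8.79e-07).

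Downstream, the 14 genes of eIF4F and cap binding held 2 that rose and 6 that fell in H460 and 4 that rose and 5 that fell in A549 (medians -0.22 and -0.09). MKNK1 and MKNK2, whose products phosphorylate eIF4E, fell in both lines (-1.13 and -1.90 in H460, limma adjusted p = 5.57e-05 and 2.48e-06, and -0.42 and -0.91 in A549, adjusted p = 0.0025 and 4.04e-05). The helicase gene EIF4A2 rose (0.89 in H460 and 1.05 in A549). Of 12 genes of the S6 kinase arm and growth outputs, 2 rose and 4 fell in H460 and 4 rose and 5 fell in A549 (medians -0.01 and -0.06). EEF2K, a kinase that slows elongation, fell (-1.62 in H460 and -0.38 in A549), and so did ULK1, the autophagy kinase that mTORC1 restrains (-0.83 and -1.37). IRS1, the adaptor through which S6 kinase feeds back on insulin signalling, rose in H460 from 7.67 to 21.9 FPKM (1.40, limma adjusted p = 2e-05) and fell in A549 from 20.7 to 14.0 FPKM (-0.53, adjusted p = 0.00194). RPS6, the ribosomal substrate of S6 kinase, rose in A549 (0.64, limma adjusted p = 0.000173) and was at -0.14 in H460 (adjusted p = 0.628).

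Among AKT, SGK and mTORC2 outputs, 4 of 11 rose and 3 fell in H460, and 3 of 12 rose and 3 fell in A549 (medians 0.09 and 0.02). AKT1 and AKT2, substrates of mTORC2, fell in H460 (-2.16 and -1.25, limma adjusted p = 2.95e-06 and 2.64e-05) and in A549 (-1.01 and -0.59, adjusted p = 1.09e-05 and 0.000224). SGK2 fell in A549 (-1.27, limma adjusted p = 7.83e-06) and was below the expression limit in H460, and NDRG1, whose product SGK phosphorylates, rose by 0.46 in H460 and 1.21 in A549. The 11 mRNAs known as sensitive to eIF4E at the level of translation had 7 that rose in each line, with 3 that fell in H460 and 2 in A549 (medians 1.07 and 0.27). MCL1, an apoptosis inhibitor, rose from 109.3 to 464.2 FPKM in H460 (2.08, limma adjusted p = 3.16e-06) and from 63.1 to 85.5 FPKM in A549 (0.43, adjusted p = 0.00111). ODC1, which starts polyamine synthesis, rose by 1.07 and 1.25, and the cyclin gene CCND3 fell (-1.66 and -1.97). VEGFA, the angiogenic growth factor, rose in H460 (1.28, limma adjusted p = 1.78e-05) and was at 0.01 in A549 (adjusted p = 0.963).

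Further genes behind counts of 5 or fewer in these lists were named after their values were seen. In H460 AKT1S1, the mTORC1 subunit PRAS40, was the 1 riser among assembly factors and further subunits, from 20.8 to 43.1 FPKM (limma adjusted p = 0.000253), and the mTOR assembly factor TTI1 fell with TELO2. RHEB, the mTORC1 activator, rose in both lines (0.44 in H460 and 0.59 in A549), and TBC1D7, a TSC complex subunit, fell in H460 (-0.43, limma adjusted p = 0.000894) and rose in A549 (0.61, adjusted p = 0.000393). Of the complexes that gate the Rag GTPases, NPRL3 and WDR59 fell in both lines, and KPTN fell in A549. EIF4B rose and EIF4G1, EIF4E3 and PDCD4 fell in both lines, and EIF4A1 and EIF4H rose in A549. In the S6 kinase arm POLDIP3 rose and LARP1 fell in both lines, MAF1 fell in H460, and EEF2 and IRS2 rose and TFEB fell in A549. SGK1 rose in both lines, PDPK1 and PHLPP2 rose in H460, and PHLPP1 rose in A549. Of the mRNAs sensitive to eIF4E, BIRC5 fell in both lines, and BCL2L1 fell in H460 (-0.88, limma adjusted p = 0.000295) and rose in A549 (0.55, adjusted p = 0.00212).

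**Figure D5:**
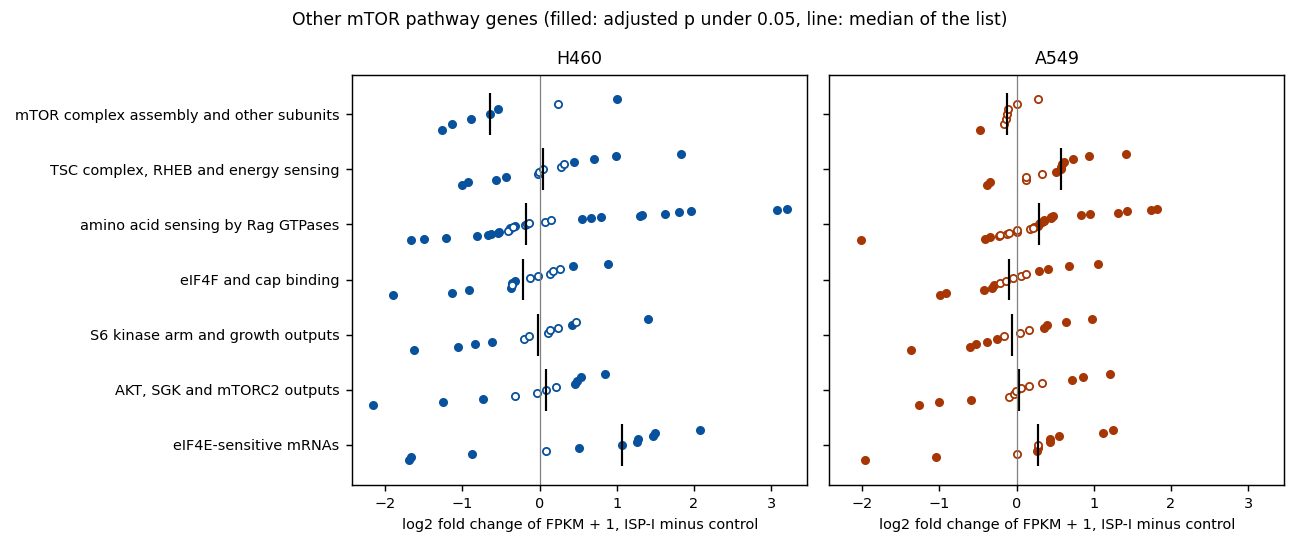
Log2 fold change of FPKM + 1 after ISP-I for each gene of the 7 other lists, H460 on the left and A549 on the right, filled where the adjusted p was under 0.05, with the median of each list as a line. The list of mRNAs sensitive to eIF4E has the highest median in H460, at 1.07, and the list of assembly factors and further subunits the lowest, at -0.64.

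The genes most like 3 of the members over the 12 libraries were sought among the 10593 genes that averaged 1 FPKM or more, by the root mean square distance between log2(FPKM + 1) values centred on their means. For MTOR these were PRPF8 (0.0606), LARP1 (0.0664) and ADCY9 (0.0872), so MTOR had neighbours that ran very close to it. For EIF4EBP1 they were TUBB (0.167), MARCKSL1 (0.171) and TUBG1 (0.18). For DDIT4, whose range was the widest, the nearest were TMEM37 (0.297), TNS2 (0.327) and SMOC1 (0.333). The distance grows with the range of a gene's values, and all genes share the libraries and their depth.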

How the data were processed

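RNA of 12 samples, 3 untreated and 3 treated with ISP-I in each of H460 and A549, was sequenced by the authors as paired-end reads, filtered with FastQC, mapped to hg38 with HISAT2, counted with HTSeq 0.9.1 and deposited as FPKM. The column of gene length is another deposited value, in bases. The annotation, its version, the strand setting and the handling of reads with several matches are not given in the sources used here.

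The columns name the line and treatment only, so libraries fall into groups by these and carry their column order within a group as a number. Of the lines in the table, 4 were pieces of an annotation cell and were left out, and 1924 genes had no reads. FPKM times length gave whole reads (tolerance 0.02), hence the depth. Replicates differed by more than read sampling, with a chi-square of 3.03 to 98.7 per degree of freedom.

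Values as log2(FPKM + 1) were compared with limma 3.58.1 (R 4.3.3, trend option), keeping genes that averaged 0.1 FPKM or more in the libraries fitted. P-values were adjusted by Benjamini-Hochberg over all genes tested. Tables were handled with Python 3.11.15 and pandas 2.3.3. The fit was also run on simulated reads, which lacked the library trends in GC content and length seen here, so no conclusion is drawn from that run.

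The members and lists were chosen with earlier results of these data known. Named beside the 10 members were, from each list, the 2 genes with the smallest p in each line among those that averaged 1 FPKM or more, paralogs of members, the 3 genes nearest to MTOR, EIF4EBP1 and DDIT4, and STK11 beside markers. Alternatives were a pseudocount of 0.1, no filter or one at 1 FPKM, quantile normalization, median-of-ratios factors, limma voom on recovered reads, a single fit of all libraries and leaving out each library. Removal of the GC trend (lowess, span 0.3, 98.8% of genes with a GC value) and MANE Select lengths were added after the data were seen. Levels of protein and other assays were not analysed here. A gene of the lists is counted but not reported here by name.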

Additional observations from a re-analysis of the deposited data

Results flagged for a closer look

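The change after ISP-I differed between H460 and A549 for 5 of the 10 genes, by the interaction of line and treatment in limma over all 12 libraries. All 5 were more negative in H460, as were 34.7% of all genes tested, while 18.6% were more positive, so that a difference between the lines was common among genes in general. With median-of-ratios factors, however, 3291 of 13975 genes were more negative and 3805 more positive. The difference, H460 minus A549 on the log2 scale, was -1.91 for DDIT4, -1.38 for MLST8, -1.12 for EIF4EBP1, -0.73 for EIF4EBP2 and -0.58 for MTOR. For MLST8 the sign itself differed, with all 3 treated libraries below the controls in H460 and all 3 above them in A549. The other 4 fell in both lines. With median-of-ratios factors and voom, MTOR (-0.32, limma adjusted p = 0.144) and EIF4EBP2 (-0.44, adjusted p = 0.0591) did not pass.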

How the results depend on the processing

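No paired analysis was possible because the columns number the libraries of a line in a row and carry no replicate number shared by the groups. Of 2179 values recomputed under alternatives, 30 changed sign, each of a difference that had not passed. For RPS6KB1 in H460 they were 0.10 (quantile), 0.16 (median-of-ratios), 0.19 (voom with those factors) and -0.24 to 0.00 with a library left out. RPS6 in H460 gave 0.14 with median-of-ratios factors, 0.14 with voom and -0.44 to 0.05 with a library left out. RPS6KB2 in H460 gave 0.01 (quantile), 0.03 (median-of-ratios), 0.03 (voom) and 0.15 (GC trend removed). VEGFA in A549 gave -0.01, -0.02, -0.03 and -0.01 under the same 4 settings and -0.06 to 0.08 with a library left out. EIF4EBP3 in A549 gave -0.12 to 0.16 with a library left out. Between the lines, RPTOR gave 0.05 (median-of-ratios), 0.05 (voom) and 0.04 (GC trend removed), and EIF4E -0.02 (GC trend removed) and -0.08 to 0.13 with a library left out. Before treatment, RICTOR gave 0.02 (GC trend removed), and EIF4E -0.04 to 0.18 with a library left out.

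Falls over 2-fold in H460, 4 as reported, numbered 6 with a pseudocount of 0.1 or voom on library totals (MTOR and DEPTOR joining), 3 with quantile, median-of-ratios or GC correction (MLST8 lost) and 3 to 5 with a library left out. In A549 they numbered 3 in place of 2, with DEPTOR, with a pseudocount of 0.1 or either voom fit. Rises over 2-fold in H460 numbered 0 with the GC trend removed and 0 to 1 with a library left out (0 without ISP-I library 2). Between the lines, 1 gene, RICTOR, had the higher change in H460 by quantile normalization (0.74, limma adjusted p = 0.0447), and 0 to 1 with a library left out (0.82, adjusted p = 0.0201, without H460 ISP-I library 3). With voom and median-of-ratios factors 3 had the lower change, MTOR (-0.32, adjusted p = 0.144) and EIF4EBP2 (-0.44, adjusted p = 0.0591) no longer passing. With a library left out, DEPTOR (-0.45, adjusted p = 0.023, without H460 control library 2) and RPTOR (-0.32, adjusted p = 0.0436, without H460 ISP-I library 1) joined the lower changes. Before treatment, 2 were lower in H460 by quantile normalization and 1 to 2 with a library left out, EIF4EBP1 joining without A549 control library 2 (-0.42) and RICTOR without A549 control library 3 (-0.38). With MANE Select lengths RPTOR over RICTOR was 5.17 in treated A549, and both 4E-BP mRNAs over EIF4E were 3.87 and 0.571 in H460 and 4.48 and 1.28 in A549, control and treated. The cause of these shifts was not tested. Depth limits DEPTOR most, at 8 to 61 reads a library, where a library left out gave adjusted p of 0.000209 to 0.0201 for its fall.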
